A study of Mus musculus with 7 samples.

Results

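The minor spliceosome snRNAs are the 14 genes whose transcripts carry the symbol U11, U12, U4atac or U6atac in the CIRS-seq count files, out of 13218 genes listed there. All 4 symbols were found, with 3 genes for U11, 4 for U12, 1 for U4atac and 6 for U6atac. GENCODE vM1, the mouse annotation on mm9, holds 40 genes with these symbols, and 26 of them (2 U11, 2 U12 and 22 U6atac) are not listed in the files. The genes of each symbol are called copy 1, copy 2 and so on here, in falling order of their summed counts.

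The minor spliceosome removes the rare U12-type introns, while the bulk of introns is removed by the major spliceosome. U11 base pairs with the 5′ splice site and U12 with the branch site of these introns, and both act as 1 joint particle. U4atac and U6atac arrive base paired to each other together with U5. U6atac then leaves U4atac, takes the place of U11 at the 5′ splice site and pairs with U12.

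CIRS-seq counts, for each base of each RNA, the cDNAs that ended 1 base downstream of it, called RT stops. DMS mainly methylates unpaired A and C, and CMCT mainly modifies unpaired U and, less strongly, G, and both adducts stop reverse transcriptase. The libraries came from E14 mouse embryonic stem cells of the 129/Ola strain, grown with LIF, whose lysate was freed of protein by Proteinase K, so proteins of the particles were removed before probing. The NT group is untreated lysate, the DMS group pools aliquots treated at 50 to 200 mM, and the CMCT group pools aliquots at 10 to 50 mM. Each group has 2 biological replicates, and 1 ribosome-depleted RNA-seq library of the same line has no replicate.

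With each genomic position taken once per gene, a library held between 140186204 and 247369982 RT stops. The 7 embryonic stem cell markers of the list (Pou5f1, Sox2, Nanog and others) were all listed and had an RNA-seq level between 15.9 and 221 RPKM, alignments scaled to exon length and to library size. Of the 8 markers of other cells, 7 had an RNA-seq value, between 0.00775 RPKM (Col1a2) and 3.05 RPKM (Gata6), and 3 (T, Pax6 and Acta2) were listed in the CIRS-seq files. Their summed CIRS-seq level was 595 and 853 in counts scaled to library size (CPM) in NT, 542 and 512 after DMS and 615 and 459 after CMCT, mostly from Pax6. Pax6 had 583.2 and 843.5 CPM in NT but 0.331 RPKM in RNA-seq, while Pou5f1 had 97.6 and 84.3 CPM and 74.9 RPKM. The 7 embryonic stem cell markers summed to 332 and 288 CPM in NT. Of the 3 listed markers of other cells, 1 (Acta2) was higher after CMCT. The part of such cells in the results was not tested.

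The sequence of the most counted copy of each RNA is shown because the results below turn on single bases. Bases are counted from 1 at the 5′ end, written as DNA, and the last 25 bases carry no counts. U12 copy 1 (ENSMUST00000083242) lies between genes at chr15:82980074-82980224 (mm9, plus strand), and capitals mark the bases that pair with the branch site and the single strand around the Sm site, where the Sm proteins bind. U11 copy 1 (ENSMUST00000104135) lies between genes at chr4:131825995-131826128 (minus strand), with the 5′ end that pairs with the 5′ splice site and the Sm site in capitals. U4atac (ENSMUST00000116892) lies at chr1:120355718-120355842 (minus strand), opposite to an intron of Clasp1. Its capitals mark the stretch complementary to U6atac and the stretch of the 5′ stem-loop known to bind a protein of the particle before U4atac and U6atac come apart. U6atac copy 1 (ENSMUST00000116888) lies between genes at chr2:27395325-27395450 (minus strand), with the stretch around the bases that pair with the 5′ splice site, and the exact complement of U4atac, in capitals.
U12: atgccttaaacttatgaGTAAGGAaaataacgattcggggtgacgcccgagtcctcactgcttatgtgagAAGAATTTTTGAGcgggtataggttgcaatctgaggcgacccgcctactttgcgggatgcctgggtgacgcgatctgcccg
U11: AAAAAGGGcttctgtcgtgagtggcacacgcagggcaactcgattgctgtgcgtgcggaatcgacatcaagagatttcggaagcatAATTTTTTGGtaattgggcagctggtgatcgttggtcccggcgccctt
U4atac: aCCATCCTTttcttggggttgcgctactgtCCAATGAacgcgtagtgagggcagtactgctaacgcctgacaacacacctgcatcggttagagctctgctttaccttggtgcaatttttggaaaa
U6atac: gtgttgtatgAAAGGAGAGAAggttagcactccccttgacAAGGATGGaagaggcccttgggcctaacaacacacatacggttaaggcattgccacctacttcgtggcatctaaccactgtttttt

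The copies of 1 RNA are close in sequence, which limits what a count on 1 copy can mean. U12 copy 2 (chr14:22631933-22632077, plus strand) shares 140 bases with copy 1 in alignment. Copy 3 (chr5:7177706-7177856, minus strand) shares 145 bases and copy 4 (chr2:129141065-129141215, minus strand) shares 144. Of the 126 measured positions of U12 copy 1, 15 are followed by 25 bases that occur once in mm9, and these hold 3.19% of its RT stops. That share is 95.9% for U11 copy 1, 75.1% for U6atac copy 1 and 100% for U4atac. How reads that match several copies were placed is not given in the sources used here. Where 2 U12 copies have the same 25 bases, their counts were equal in all 6 libraries at 29 of 144 pairs of positions. A count on U12 copy 1 is therefore a count on U12 sequence that may come from more than 1 locus.

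The other copies lie at scattered loci. U11 copy 2 (chr14:70828303-70828404, minus strand) is a shorter copy of 102 bases within an intron of Piwil2 on the same strand, and copy 3 (chrX:98438077-98438210, plus strand) lies between genes. U6atac copies 2 (chr1:70001578-70001703) and 4 (chrX:110445709-110445834) lie opposite to introns of Spag16 and Dach2. U6atac copies 3 (chr8:101198977-101199102), 5 (chr5:70143642-70143767) and 6 (chr12:33684774-33684875) lie between genes, and all U6atac copies are on the minus strand. No listed copy overlaps an exon of another annotated gene.

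RNA-seq alignments fell on 6 of the 14 copies. U12 copy 1 had 565 alignments, copy 2 had 217 and copy 3 had 132. U11 copy 1 had 373, U6atac copy 1 had 151 and U4atac had 86. The other 8 copies had 0 alignments each, which allows up to 3, by counting error alone. These 8 include U11 copies 2 and 3, U12 copy 4 and U6atac copies 2 to 6, all of which held RT stops in every CIRS-seq library.

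**Figure D1:**
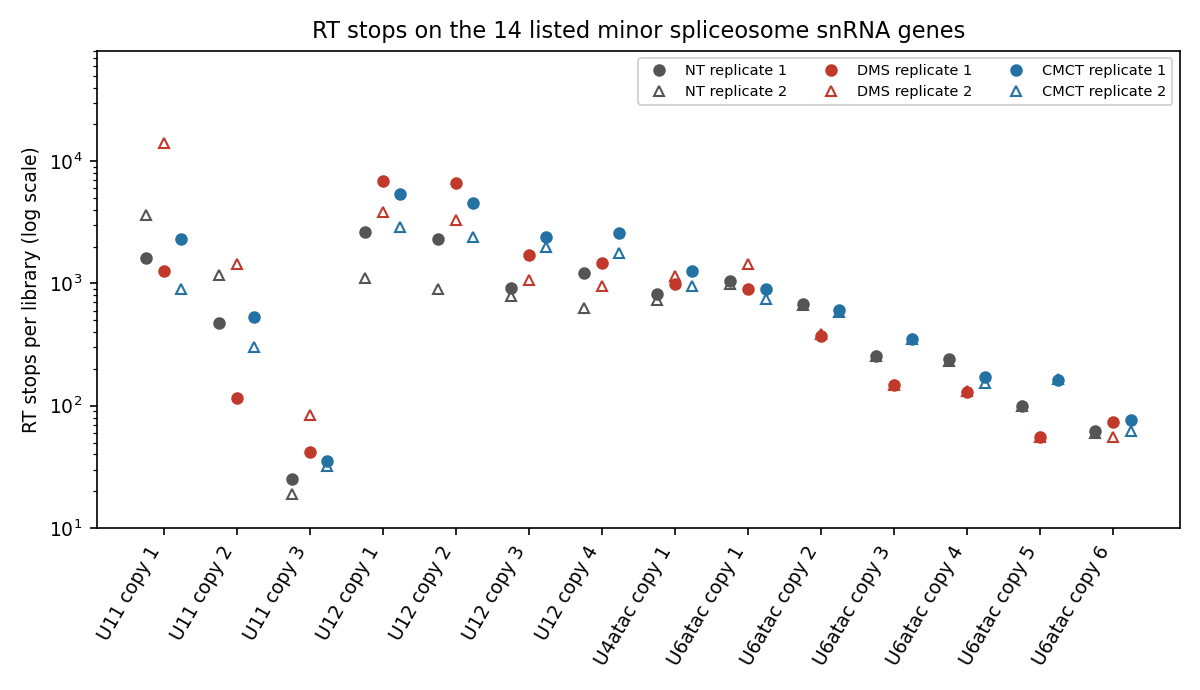
RT stops per library (vertical, log scale) on each of the 14 genes (horizontal), with circles for replicate 1, triangles for replicate 2 and colours for NT, DMS and CMCT. The 2 replicates of U6atac copies 2, 3, 4 and 5 lie on top of each other, while U11 copy 1 held 1270 RT stops in DMS replicate 1 and 14063 in replicate 2.

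The 2 replicates were first compared position by position, because replicates that agree too well do not carry the error of separate samples. U6atac copy 3 held 148 and 149 RT stops after DMS, 352 and 352 after CMCT, and counts that differed by 1 in NT. U6atac copy 5 held 99 and 99 in NT, 56 and 56 after DMS and 163 and 164 after CMCT. In U6atac copies 2, 3, 4 and 5, the 2 counts differed by at most 1 at more than 50% of the positions with 10 or more RT stops, in each of the 3 groups. For U6atac copy 2 this was the case at 23 of 24 positions in NT, against 5.56 for Poisson counts with the same totals. These replicates differed by less than the sampling noise, so they were counted as 1 sample and no test is given for them. The limit on near-equal counts was set after the counts were seen, and the fit over all genes had called these 4 copies lower after DMS, calls that are not used here. In U6atac copy 2 the replicates held 674 and 667 RT stops in NT, 375 and 386 after DMS and 609 and 589 after CMCT. In U6atac copy 4 they held 241 and 233 in NT, 129 and 131 after DMS and 173 and 154 after CMCT. Without replicate error, no difference between the groups can be drawn for these 4 copies.

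The remaining copies had such near-equal positions in part, and they were not particular to these RNAs. Over all RNAs, 143309 of the 698512 positions with at least 50 RT stops had near-equal counts in all 3 groups. By that measure it was 0 of 41 positions in U11 copy 1, 2 of 40 in U12 copy 1, 4 of 29 in U4atac and 2 of 29 in U6atac copy 1. The counts that follow are per group, at positions with 10 or more RT stops. In U12 copy 1 the 2 counts differed by at most 1 at 12 of 43 positions in NT, where Poisson counts give 1.91, and at 20 of 54 after CMCT, where they give 3.94. After DMS it was 2 of 51, against 2.99. In U12 copy 3 it was 24 of 30 positions in NT and 33 of 40 after CMCT. The tests below take the replicates as separate samples, so their p-values may be too small where counts are shared. Their fits estimate the spread over all features together, so p-values elsewhere and the shares of all features called may be affected too. The part of this in each result was not tested beyond leaving out such positions.

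**Figure D2:**
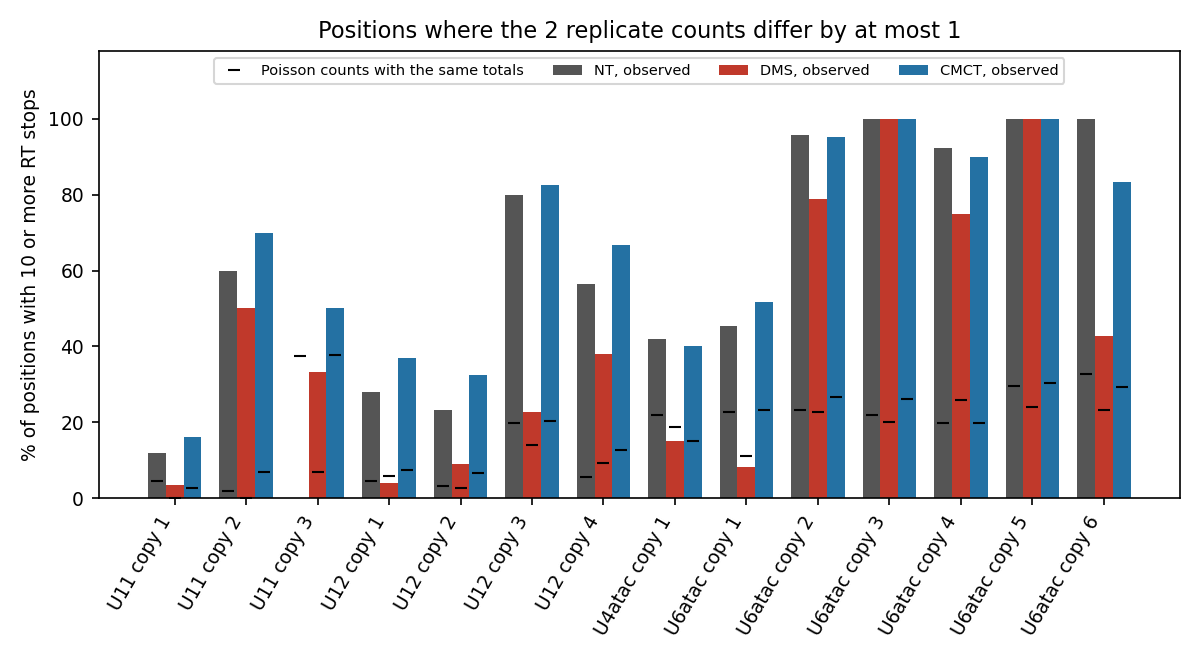
Percent of positions with 10 or more RT stops at which the 2 replicate counts differ by at most 1 (vertical), for each copy (horizontal) and group (bar colour), with a black dash at the value for Poisson counts with the same totals. U6atac copies 3 and 5 stand at 100% in all 3 groups, far above their dashes, and U11 copy 1 has 5 of 42 such positions in NT and 2 of 58 after DMS.

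U12, the snRNA that selects the branch site, held 60471 RT stops summed over its 4 copies, where reads may be counted on more than 1 copy. Copy 1 held 2629 and 1098 RT stops in NT, 6948 and 3831 after DMS and 5430 and 2913 after CMCT. As CPM with TMM scaling this was 16.5 and 9.14 in NT, 35.7 and 20.5 after DMS and 21.5 and 19.2 after CMCT. Both DMS libraries and both CMCT libraries lay above both NT libraries, and replicate 1 was the higher one in each group.

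The level of U12 copy 1 after DMS differed from NT by 1.13 ± 0.35 (SE) on the log2 scale, a 2.20-fold rise (edgeR quasi-likelihood test, adjusted p = 0.0311, n = 2 against 2). After CMCT the difference was 0.67 ± 0.35 and did not pass the test (edgeR, adjusted p = 0.180). For background, 13.8% of the 13216 genes tested were higher after DMS and 12.5% lower, and 15.0% were higher after CMCT and 13.9% lower, with a median difference over all genes of 0.11 for CMCT. The DMS call was lost without NT replicate 2 (0.77, adjusted p = 0.287), without DMS replicate 1 (0.68, adjusted p = 0.252), with RLE scaling (1.15, adjusted p = 0.0509) and with transcripts as features (1.1, adjusted p = 0.0651). At positions once in mm9 alone the differences were 1.21 for DMS and 2.43 for CMCT. These positions held 29 and 30 RT stops in NT, 93 and 93 after DMS and 242 and 242 after CMCT, replicate counts so close that no replicate error stands behind a test in either comparison. In every fit that leaves out a library, its group is 1 library, which is assumed to vary like the other groups.

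U12 copy 2 had 14.4 and 7.43 CPM in NT and 34.1 and 17.6 after DMS, and rose by 1.24 ± 0.37 on the log2 scale (edgeR, adjusted p = 0.0274). The call was lost without NT replicate 2 or DMS replicate 1, as for copy 1, and with RLE scaling, with positions once in mm9 and with transcripts as features (1.26, 1.78 and 1.21, adjusted p = 0.0524, 0.0526 and 0.0631), at about the same size or larger. Since this copy shares most of its sequence with copy 1, it is not a second observation. U12 copy 3, for which 84.2% of RT stops lie at positions once in mm9, had 5.70 and 6.62 CPM in NT, 8.87 and 5.75 after DMS and 9.39 and 13.0 after CMCT. It differed by 0.25 ± 0.28 after DMS (edgeR, adjusted p = 0.538) and by 0.86 ± 0.28 after CMCT (adjusted p = 0.0363). Near-equal replicates made up 24 of its 30 positions in NT and 33 of its 40 after CMCT. At most positions the CMCT p-value thus lacks the error of separate samples, and the difference is not taken as a call. It also did not pass without NT replicate 1 or 2, DMS replicate 2 or CMCT replicate 2. The same held with RLE scaling (0.74, adjusted p = 0.0848), with transcripts as features (0.73, adjusted p = 0.117) and with positions once in mm9 alone (0.65, adjusted p = 0.337). U12 copy 4 differed by -0.03 ± 0.28 after DMS (edgeR, adjusted p = 0.944) and by 0.76 ± 0.28 after CMCT (adjusted p = 0.0567). The CMCT value passed with DESeq2 (0.67, adjusted p = 0.0196) and with the replicate number as a block (0.80, adjusted p = 0.00711). Near-equal replicates made up 13 of the 23 positions of copy 4 in NT and 22 of the 33 after CMCT. No call is therefore drawn from these p-values either. At positions once in mm9 alone copy 4 differed by -1.44 after DMS (adjusted p = 0.0530), from 311 and 312 RT stops in NT and 158 and 157 after DMS, again replicate counts too close for a test. After CMCT these positions held 1091 and 1091, equally too close.

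U11, which reads the 5′ splice site, varied widely between replicates. Copy 1 held 1604 and 3615 RT stops in NT, 1270 and 14063 after DMS and 2292 and 909 after CMCT. The 2 DMS libraries differed 11.5-fold as CPM, and the NT libraries lay between them. The difference from NT was 1.02 ± 0.78 after DMS (edgeR, adjusted p = 0.359) and -1.41 ± 0.79 after CMCT (adjusted p = 0.210). Without DMS replicate 2 the DMS difference turned to -1.70 (adjusted p = 0.000709) and the CMCT difference passed the test (adjusted p = 3.62e-05). Both p-values then rest on the spread of the libraries that remain, without the one that differed most, and on 1 DMS library. Copy 2 held 475 and 1176 RT stops in NT, 115 and 1454 after DMS and 527 and 305 after CMCT, and neither difference passed the test (edgeR, adjusted p = 0.597 and 0.154). With the replicate number as a block both did (-1.0 and -1.14, adjusted p = 0.00593 and 0.00157), and so did copy 1 after CMCT (-0.88, adjusted p = 0.0360). Without DMS replicate 2 both passed for copy 2, and that of CMCT also without DMS replicate 1, each time with 1 DMS library. Near-equal replicates made up 6 of the 10 positions of copy 2 in NT, 4 of the 8 after DMS and 7 of the 10 after CMCT. No call is therefore drawn from the p-values of copy 2. Copy 3 held between 19 and 84 RT stops per library, too few to describe along its length, and its DMS difference (1.07, adjusted p = 0.0953) passed without CMCT replicate 1 or 2 (adjusted p = 0.0229 and 0.0184).

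U4atac, the partner that holds U6atac inactive, was even across the groups. It held 823 and 731 RT stops in NT, 988 and 1157 after DMS and 1257 and 951 after CMCT. As CPM this was 5.15 and 6.08 in NT, 5.08 and 6.17 after DMS and 4.97 and 6.25 after CMCT, so the groups overlapped fully. The fitted differences were 0.00 ± 0.25 for DMS and -0.00 ± 0.25 for CMCT (edgeR, adjusted p = 0.992 and 0.996).

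U6atac, the RNA that forms the catalytic centre with U12, held in copy 1 1055 and 989 RT stops in NT, 908 and 1456 after DMS and 904 and 748 after CMCT. As CPM the CMCT libraries, at 3.57 and 4.92, lay below the NT libraries, at 6.60 and 8.23, while the DMS libraries, at 4.67 and 7.77, overlapped them. The difference was -0.25 ± 0.29 after DMS (edgeR, adjusted p = 0.547) and -0.81 ± 0.29 after CMCT (adjusted p = 0.0576). The CMCT difference passed without DMS replicate 1, DMS replicate 2 or CMCT replicate 2. It also passed with DESeq2 (-0.92, adjusted p = 0.00964) and with the replicate number as a block (-0.82, adjusted p = 0.00546). Near-equal replicates made up 20 of the 44 positions of copy 1 in NT and 16 of the 31 after CMCT, where Poisson counts give 9.94 and 7.16. These p-values may therefore be too small, and no call is drawn from them. Copy 6, a short copy, held between 55 and 76 RT stops per library and did not pass the test in either comparison (edgeR, adjusted p = 0.449 and 0.528). With positions once in mm9 alone its DMS difference was -1.76 (adjusted p = 0.0488), from 45 and 45 RT stops in NT and 18 and 18 after DMS, again without replicate error. In a count of RT stops, more RNA and more modification per RNA both raise the total, and the 2 cannot be told apart here.

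Along each RNA the test asks whether a position took a larger share of that RNA's own RT stops than in NT. Over all RNAs, 698512 positions with at least 50 RT stops were tested, and 13.2% of them were higher after DMS and 8.36% lower, and 4.75% were higher after CMCT and 4.3% lower. In the first copies of the 4 RNAs, 139 positions were tested, of which 16 were higher and 19 lower after DMS, and 10 higher and 8 lower after CMCT. Of the 16 positions higher after DMS, 14 were A (of 44 tested), 1 was C (of 25), 1 was G (of 30) and 0 were U (of 40). C, the other base that DMS mainly modifies, was thus seldom higher. Of the 10 higher after CMCT, 5 were G (of 30 tested), 2 were U (of 40), 2 were A (of 44) and 1 was C (of 25). With 2 libraries a group these calls are fragile: for all 4 RNAs, leaving out NT replicate 1, NT replicate 2 or DMS replicate 2 left 0 positions higher after DMS in each RNA. After CMCT, the 3 positions of U11 fell to 0 without NT replicate 1, NT replicate 2 or CMCT replicate 2 and to 1 without any other library. The 5 CMCT positions of U4atac fell to 0 without the same 3 libraries, to 1 without CMCT replicate 1 and to 3 without either DMS library.

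In U12 copy 1, 2 of the 40 tested positions were higher after DMS and 5 were lower, against 13.2% and 8.36% of all positions. With library sizes in place of the RNA's own total, a scaling that keeps the level of the RNA in the difference, 9 were higher after DMS and 4 after CMCT. A17, in the loop of stem-loop I, held 6 and 7 RT stops in NT and 167 and 199 after DMS. Its share of the RNA's RT stops was 0.228% and 0.638% in NT and 2.40% and 5.19% after DMS, with no overlap, and 0.110% and 0.103% after CMCT. The difference was 3.27 ± 0.66 on the log2 scale (edgeR, adjusted p = 0.0337). A20, within the branch site element, held 5 and 2 RT stops in NT and 45 and 56 after DMS, a difference of 2.45 ± 0.58 (edgeR, adjusted p = 0.0481). In the free U12 fold of RNAfold A20 is paired in the stem of stem-loop I, while A17 is unpaired. Both calls were lost without NT replicate 1, NT replicate 2, DMS replicate 2 or either CMCT library, at differences of 2.57 to 4.04 for A17 and 1.77 to 2.49 for A20, and that of A20 also without near-equal positions (adjusted p = 0.0586).

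Other A residues of U12 had higher shares after DMS that did not pass the test. A14 in the same loop went from 0.761% and 0.182% in NT to 1.45% and 6.21% after DMS (2.86 ± 0.96 on the log2 scale, edgeR, adjusted p = 0.105). A9 at the start of the loop went from 0.418% and 0.546% to 0.777% and 3.50% (adjusted p = 0.154). A30 in the linker after the branch site element held 0 and 0 RT stops in NT, 22 and 35 after DMS and 6 and 6 after CMCT (adjusted p = 0.0710 and 0.216). These 3 were chosen after their values were seen.

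After CMCT, 0 of the 40 tested positions of U12 copy 1 were higher by edgeR and 2 were lower, against 4.75% and 4.3% of all positions. At an unadjusted p under 0.05, 2 were higher. U62 in the loop of stem-loop IIb held 1 and 0 RT stops in NT and 51 and 47 after CMCT (adjusted p = 0.0793). U63 beside it held 17 and 10 in NT and 95 and 94 after CMCT (adjusted p = 0.302). U116, unpaired in the fold near the 3′ end and at a position once in mm9, held 17 and 17 in NT, 72 and 73 after DMS and 167 and 168 after CMCT (adjusted p = 0.117). These 3 were also chosen after their values were seen, and their replicate counts differed by at most 7 in NT and after CMCT. After DMS, U62 held 4 and 13 and U63 held 17 and 58. In U12 copies 2, 3 and 4, of 31, 23 and 22 tested positions, 1 in each was higher after CMCT and 0, 5 and 2 were lower. After DMS 2, 3 and 1 positions of these copies were higher and 4, 11 and 5 lower.

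The 3 positions with the most RT stops in NT, summed over both libraries, mark where reverse transcriptase stopped without any reagent. They were A27 (411 and 181), U13 (490 and 56) and U28 (198 and 111), in the linker and in the loop of stem-loop I, and their order differed between the libraries, with U13 at 18.6% in replicate 1 and 5.10% in replicate 2. A27 alone took 15.6% and 16.5% of the NT RT stops of U12, 27.9% and 7.78% after DMS and 26.1% and 22.0% after CMCT. The DMS replicates thus lay on both sides of NT at A27, and the difference was 0.15 ± 0.61 (edgeR, adjusted p = 0.882). Between 87.6% and 96.7% of the RT stops of U12 lay in its first 75 bases in every library, so the 3′ stem-loop was thinly covered.

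**Figure D3:**
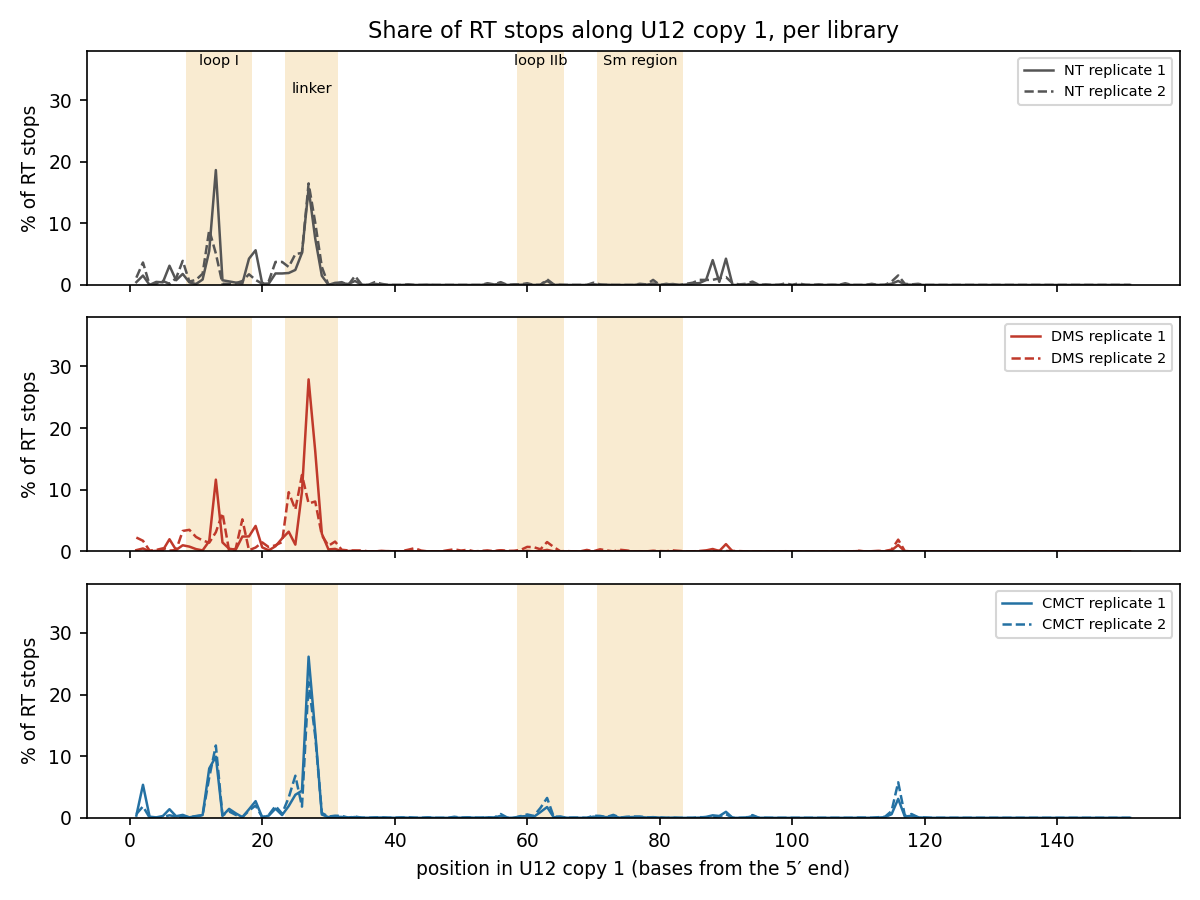
Percent of the RT stops of U12 copy 1 at each position (vertical) against the position from the 5′ end (horizontal), for NT, DMS and CMCT from top to bottom, with a solid line for replicate 1 and a dashed line for replicate 2. In all 6 libraries the highest values lie in the loop of stem-loop I and in the linker (shaded), where A27 reaches 27.9% in DMS replicate 1 and 7.78% in DMS replicate 2.

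Reactivity sets the treated count of each base against NT, as the log2 of the ratio of counts scaled to the mean of the RNA, with values under 0 set to 0, Winsorised at the 90th percentile and scaled from 0 to 1. For U12 the higher of the DMS and CMCT values was taken at each of the 126 measured positions. The mean was 0.536 over 61 positions unpaired in the fold and 0.172 over 65 paired ones, and 28 unpaired and 9 paired positions were above 0.7. Many of the positions above 0.7 lay below the 50 RT stops needed for a test, so a few RT stops set their values. Position 41 (0.867), for example, held 0 and 0 in NT, 1 and 1 after DMS and 4 and 1 after CMCT. Positions without any RT stop entered the means as 0, such as the paired positions 122 to 126 and the unpaired position 121. At such positions low reactivity cannot be told from missing coverage. The difference of the unpaired and paired means was 0.384 from replicate 1 alone and 0.352 from replicate 2 alone. Bases of 1 RNA are no replicates, so this is a description without a test. For U11 copy 1 the same means were 0.428 and 0.179, for U4atac 0.425 and 0.305, and for U6atac copy 1 0.458 and 0.314.

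Among the elements of U12, the loop of stem-loop IIb had the highest mean CMCT reactivity, with 0.915 in replicate 1 and 0.785 in replicate 2. The loop held 23 and 15 RT stops in NT and 196 and 185 after CMCT. Some of its bases had near-equal CMCT counts, such as 16 and 16 at G60 and 95 and 94 at U63. The 2 replicate values may therefore not be independent. For DMS the same loop had 0 in replicate 1 and 0.633 in replicate 2, so no DMS level can be given for it. The linker had DMS means of 0.781 and 0.507 and CMCT means of 0.318 and 0.311. The loop of stem-loop I had DMS means of 0.400 and 0.413 and CMCT means of 0.233 and 0.301. The branch site element itself, of 7 bases, had 0.326 and 0.291 with DMS and 0.0544 and 0.167 with CMCT. The Sm region, which the Sm ring covers in the particle, had 0.147 and 0.284 with DMS and 0.377 and 0.369 with CMCT, in lysate freed of protein. It held 17 and 15 RT stops in NT and 60 and 52 after CMCT, also with near-equal counts such as 13 and 14 at G73. The 2 replicates of the whole profile ranked the positions with a Spearman correlation of 0.451 with DMS and 0.730 with CMCT over 126 positions that share libraries and depth.

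**Figure D4:**
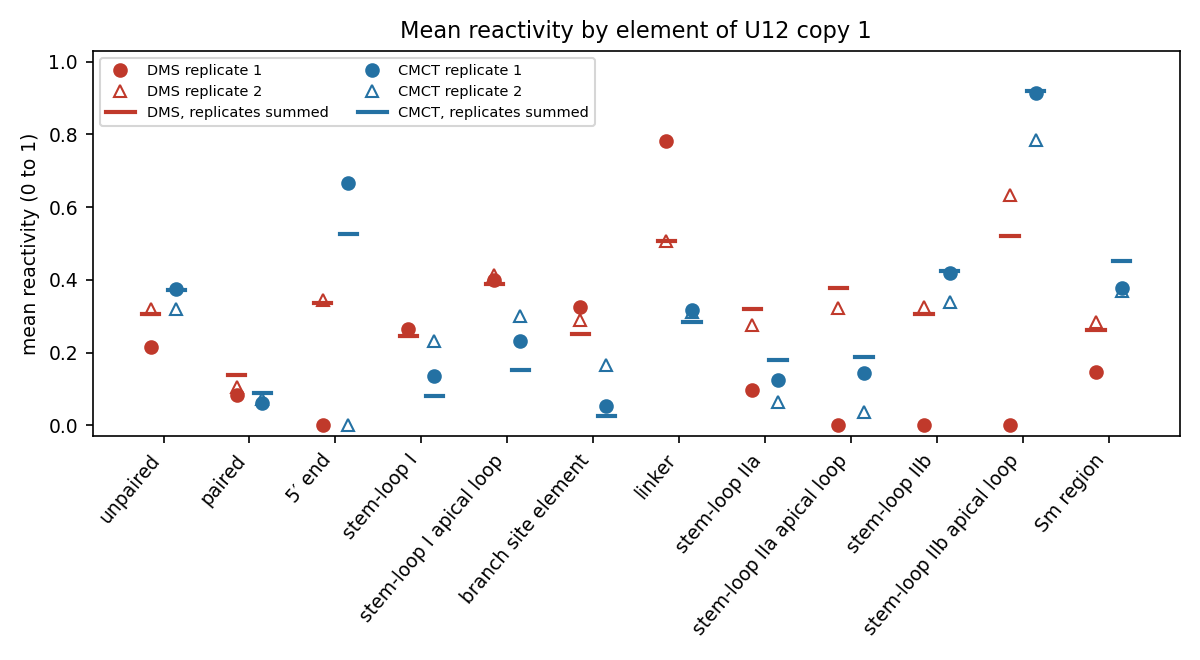
Mean reactivity from 0 to 1 (vertical) over each structural element of U12 copy 1 (horizontal), with circles and triangles for replicates 1 and 2 and a bar for the value from the summed replicates. The CMCT points of the loop of stem-loop IIb stand highest, at 0.915 and 0.785, while its DMS points are split between 0 and 0.633.

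In U11 copy 1, 6 of 41 tested positions were higher after DMS and 3 after CMCT, and 0 were lower after either reagent. The higher ones made up 14.6% after DMS and 7.32% after CMCT, against 13.2% and 4.75% of all positions. The 5′ end, which pairs with the 5′ splice site, held 3 of the DMS positions. A1 held 16 and 16 RT stops in NT, 128 and 1900 after DMS and 116 and 47 after CMCT. As a share of U11 this was 0.998% and 0.443% in NT, 10.1% and 13.5% after DMS and 5.06% and 5.17% after CMCT. Both differences passed the test, with 4.10 ± 0.45 for DMS (edgeR, adjusted p = 0.0113) and 2.89 ± 0.44 for CMCT (adjusted p = 0.0328). A2 held 5 and 6 RT stops in NT and 39 and 731 after DMS (4.21 ± 0.54, adjusted p = 0.0141). A3 held 0 and 0 in NT and 44 and 1143 after DMS (adjusted p = 0.0209). The first 8 bases took 7.61% and 11.3% of the RT stops of U11 in NT, 25.5% and 49.0% after DMS and 15.4% and 10.7% after CMCT. An RT stop at base 1 lies next to the end of the RNA, where a full-length cDNA also ends.

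Further inside U11, G21 was higher after both reagents, with 1 and 2 RT stops in NT, 6 and 84 after DMS and 16 and 10 after CMCT (edgeR, adjusted p = 0.0153 and 0.0194). G19 rose after CMCT, from 0.374% and 0.470% to 3.05% and 4.29% (3.07 ± 0.40, adjusted p = 0.0254). A37 and A38 rose after DMS, with 1 and 1 RT stops in NT against 9 and 94 at A37 and 2 and 1 against 5 and 81 at A38 (adjusted p = 0.0145 and 0.0347). At these positions nearly all DMS counts came from DMS replicate 2, the library with the high U11 total, while the shares of both DMS libraries lay above both NT libraries.

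In U4atac, 3 of 29 tested positions were higher after DMS and 7 lower, against 13.2% and 8.36% of all positions. After CMCT 5 were higher and 2 lower, against 4.75% and 4.3% of all positions. Of the higher ones, 2 for each reagent lay in the CCAATGA stretch of its 5′ stem-loop. A37, its last base, held 22 and 23 RT stops in NT, 294 and 296 after DMS and 18 and 18 after CMCT. It took 2.67% and 3.15% of the RT stops of U4atac in NT and 29.8% and 25.6% after DMS (3.25 ± 0.24, edgeR, adjusted p = 0.00792). A33 held 5 and 4 in NT and 86 and 97 after DMS, a share of 0.608% and 0.547% against 8.70% and 8.38% (3.86 ± 0.25, adjusted p = 0.00762). A34, between them, held 7 and 5 in NT and 24 and 16 after DMS and did not pass the test (adjusted p = 0.0853). Every position of U4atac is once in mm9, so these counts belong to this locus.

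In the same stretch the bases between the A residues were the ones raised by CMCT. U35 held 5 and 5 RT stops in NT, 1 and 2 after DMS and 45 and 38 after CMCT (2.53 ± 0.27, edgeR, adjusted p = 0.0173), and was lower after DMS (adjusted p = 0.0489). G36 held 2 and 1 in NT, 2 and 2 after DMS and 42 and 41 after CMCT (4.22 ± 0.37, adjusted p = 0.0103). The 7 bases together took 8.75% and 8.07% of the RT stops in NT, 41.9% and 36.5% after DMS and 10.7% and 12.6% after CMCT. Outside the stretch, C82 was higher after both reagents, with 3 and 4 in NT, 28 and 29 after DMS and 19 and 20 after CMCT (adjusted p = 0.0160 and 0.0464). G81 (3 and 2 in NT, 24 and 24 after CMCT) and U5 (4 and 2 in NT, 19 and 15 after CMCT) were higher after CMCT (adjusted p = 0.0217 and 0.0469). At G36, G81 and C82 the replicate counts differed by at most 1 in all 3 groups, so no replicate error stands behind their tests. They made up 3 of the 5 CMCT calls, and C82 was 1 of the 3 DMS calls. In the fit without positions of near-equal replicates, 2 positions of U4atac were higher after DMS and 0 after CMCT by edgeR, against 3 and 5 with all positions kept.

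The stretch by which U4atac pairs with U6atac, its bases 2 to 9, took 24.8% and 26.5% of the RT stops in NT and 15.7% and 21.9% after DMS. As counts the stretch held 204 and 194 in NT and 155 and 253 after DMS, which overlap. A share also falls where other positions of the RNA, such as A33 and A37, take more. After CMCT it took 26.9% and 21.5%, which overlaps NT. The complement in U6atac, its bases 41 to 48, held under 1.5% of the RT stops of U6atac copy 1 in every library.

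In U6atac copy 1, 5 of 29 tested positions (17.2%) were higher after DMS and 7 lower, against 13.2% and 8.36% of all positions. All 5 higher ones were A, 4 of them between A11 and A21 and 1, A8, before that stretch. The full run of purines is longer, from G10 to G23. A11 held 22 and 23 RT stops in NT, 123 and 167 after DMS and 15 and 16 after CMCT. Its share went from 2.09% and 2.33% to 13.6% and 11.5% after DMS (2.50 ± 0.23, edgeR, adjusted p = 0.00960). A12 held 10 and 10 in NT and 51 and 84 after DMS (2.52 ± 0.21, adjusted p = 0.00874). A20 held 41 and 40 in NT, 88 and 186 after DMS and 7 and 6 after CMCT, a rise after DMS (1.5 ± 0.22, adjusted p = 0.0175) and a fall after CMCT (-2.31 ± 0.26, adjusted p = 0.0179). A8 and A18 rose by 1.19 ± 0.24 and 1.42 ± 0.31 (adjusted p = 0.0345 and 0.0417). The 11 bases from A11 to A21 took 23.2% and 24.5% of the RT stops in NT, 40.2% and 50.8% after DMS and 12.3% and 14.6% after CMCT. These bounds leave out G10, G22 and G23 of the purine run. G10 took 2.46% and 2.02% in NT, 1.32% and 0.824% after DMS and 8.41% and 10.2% after CMCT. G22 and G23 took smaller shares after either reagent than in NT. The size of both changes thus depends on the bounds.

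After CMCT, 2 of the 29 tested positions of U6atac copy 1 (6.9%) were higher and 4 lower, against 4.75% and 4.3% of all positions. The 2 higher ones lay just before A11. A8 held 35 and 36 RT stops in NT and 105 and 81 after CMCT (1.69 ± 0.24, edgeR, adjusted p = 0.0303). G10 held 26 and 20 in NT, 12 and 12 after DMS and 76 and 76 after CMCT (2.04 ± 0.30, adjusted p = 0.0318). These positions are once in mm9. The 2 CMCT calls were lost under each of the 6 fits that left out a library, and without near-equal positions, where 3 of the DMS calls were made.

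**Figure D5:**
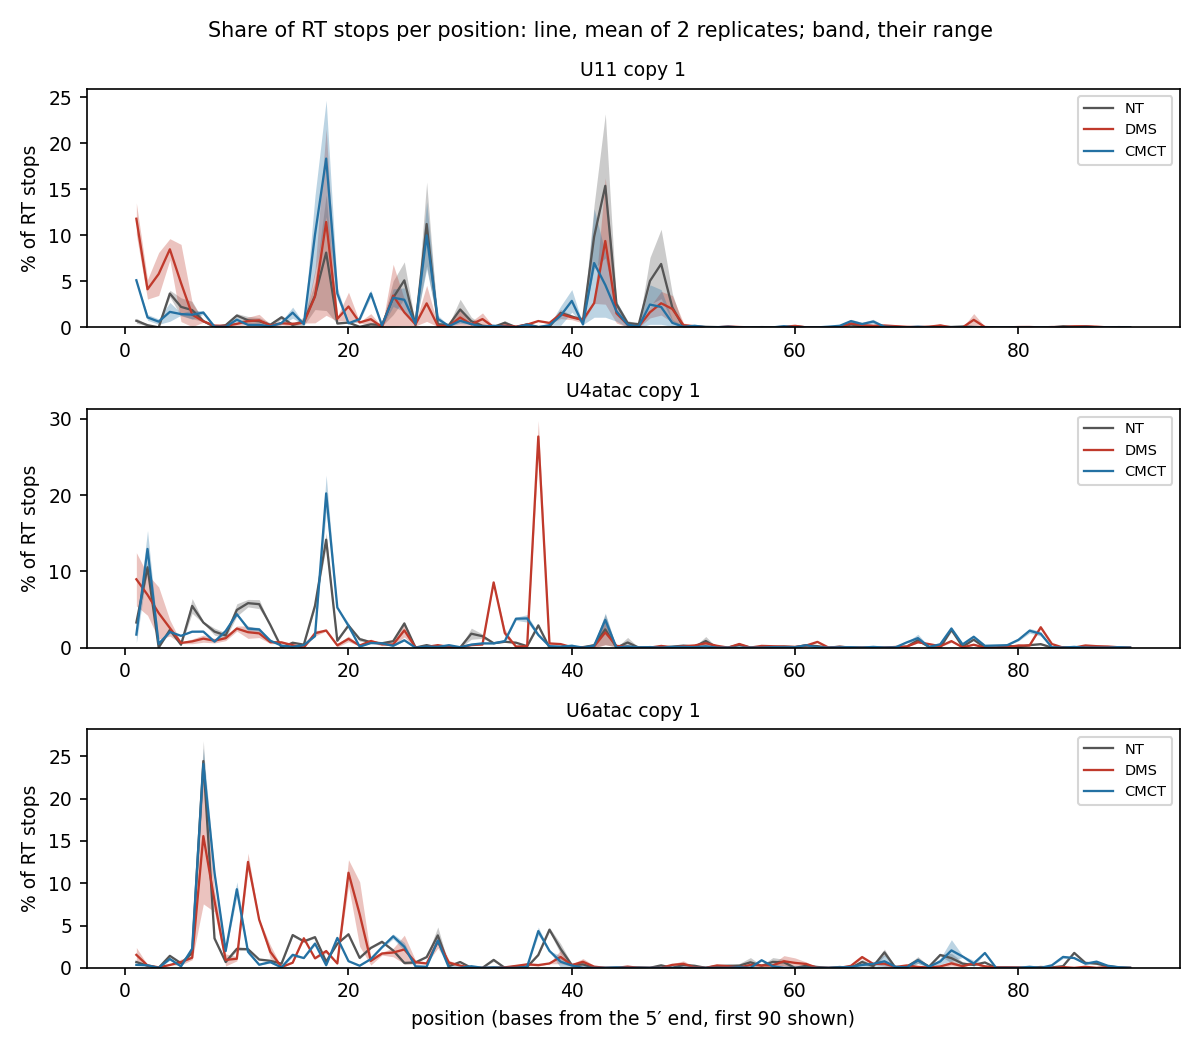
Percent of the RT stops of each RNA (vertical) at each of its first 90 positions (horizontal) for copy 1 of U11, U4atac and U6atac, with a line for the mean of the 2 replicates and a band for their range. In U4atac the DMS line reaches 29.8% and 25.6% in the 2 replicates at position 37, and in U6atac it rises at positions 11 and 20, where the NT and CMCT lines are lower.

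Of the 27 genes for proteins of the minor spliceosome or shared with it, 18 were listed and tested in CIRS-seq. They comprise U11/U12 proteins such as Snrnp25, the SF3b complex, which holds the branch site, and the Sm ring. After DMS, 1 was higher and 2 were lower, against 13.8% and 12.5% of all genes. After CMCT, 1 was higher and 1 was lower, against 15.0% and 13.9% of all genes. The median difference was 0.04 for DMS and 0.20 for CMCT, and that of all genes was 0.01 and 0.11.

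Snrpf, a protein of the Sm ring, had 6.28 and 5.70 CPM in NT and 10.8 and 18.2 after DMS and rose by 1.27 ± 0.30 (edgeR, adjusted p = 0.00748). Snrpb, another Sm protein, had 18.4 and 18.3 in NT and 11.4 and 10.2 after DMS and fell by 0.76 on the log2 scale (SE 0.24, edgeR, adjusted p = 0.0342). Sf3b1, the large subunit of SF3b, had 17.8 and 13.9 in NT and 29.6 and 26.6 after CMCT and rose by 0.83 ± 0.27 (edgeR, adjusted p = 0.0366). The call of Sf3b1 was lost under each left-out library and with RLE scaling, positions once in mm9 or transcripts as features (0.73, 0.70 and 0.71, adjusted p = 0.0584, 0.0954 and 0.0783). That of Snrpb was lost without any 1 NT or DMS library, at differences between -0.853 and -0.757, and with transcripts as features (-0.70, adjusted p = 0.0538), and that of Snrpf without NT replicate 1, NT replicate 2 or DMS replicate 2. With positions once in mm9 alone Snrpf had 0.61 (adjusted p = 0.307). Txnl4b, a relative of a U5 particle protein, had 128 and 170 CPM in NT, 38.5 and 39.9 after DMS and 29.1 and 47.6 after CMCT, and fell by 1.93 and 1.96 on the log2 scale (SE 0.35 and 0.35, edgeR, adjusted p = 0.00189 and 0.00176). With positions once in mm9 alone its differences were 0.23 and 0.19 (adjusted p = 0.593 and 0.685). The genes whose centred log2 CPM over the 6 libraries lay nearest to U12 copy 1, by Euclidean distance among 13202 genes, were Gm13654 (0.263), Gm11263 (0.290) and Gm14138 (0.309), against a median distance of 1.65.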

How the data were processed

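CIRS-seq was made from E14 lysate without reagent (NT), with DMS or with CMCT, 2 replicates each, and RNA-seq from 1 library. The authors deposited raw counts of RT stops per transcript position, aligned with Bowtie 1.0.0 to an E14 variant of mm9 (FastQC 0.10.1 and bedtools 2.17.0 are also named in the submitters' processing notes, TopHat2 2.0.6 for RNA-seq). At all 1825 member positions the combined files hold the replicates added up, and they were not used further. Deposited RNA-seq alignments were counted by midpoint in exons, since their score column holds only 0.

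Gene counts (each position once, TMM, filterByExpr) and position counts (offset by the transcript's total, at least 50 RT stops, the transcript with most counts per gene) were tested over all features with edgeR 4.0.16 quasi-likelihood (threshold 0.05, Benjamini-Hochberg) in R 4.3.3, and with DESeq2 1.42.0 as an alternative. SE is the log2 difference over the root of F. Folds came from RNAfold (ViennaRNA 2.7.2, no lonely pairs) and reactivities used a pseudocount of 1. Fits were tested on simulated data, with smaller fold changes for genes than for positions, so the recovery of small position changes is unknown. Members and lists were chosen with earlier results of these data known, and the bounds of the structural elements were set after the position profiles were seen. U12 positions named are those higher in both replicates and past the threshold (up to 8 per reagent) and the 3 with most NT RT stops, and 6 more were chosen after their values were seen. For the other RNAs every higher position is named, and for proteins every called one.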

Additional observations from a re-analysis of the deposited data

How the results depend on the processing

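The DMS rise of U12 copy 1 (1.13) kept its direction in all 12 alternatives. It did not pass with RLE scaling (1.15, adjusted p = 0.0509), with positions once in mm9 (1.21, near-equal replicate counts), with transcripts as features (1.1, adjusted p = 0.0651) or without NT replicate 2 or DMS replicate 1, and the range over left-out libraries was 0.684 to 1.62. The CMCT difference ranged from 0.304 to 1.15 over left-out libraries and was 2.43 with positions once in mm9 (adjusted p = 0.0242), where the replicate counts are near equal and give no replicate error. The count of U12 positions higher after DMS (2) was 1 with at least 200 RT stops, 9 with library sizes, 0 with positions once in mm9, 1 without near-equal positions (chosen after seeing the data) and 0 to 3 over left-out libraries. After CMCT (0) it was 4 with library sizes and 0 over left-out libraries. In U11 the counts fell from 6 to 2 after DMS and from 3 to 1 after CMCT with library sizes, and to 3 and 2 with at least 200 RT stops. In U6atac they fell from 5 to 2 and from 2 to 1 with library sizes, and the DMS count to 3 with at least 200 RT stops. In U4atac the 5 CMCT positions numbered 6 with library sizes, 3 with at least 20 RT stops and 0 with at least 200. Protein genes called after DMS (3) numbered 8 with DESeq2, 1 with positions once in mm9 and 1 to 5 over left-out libraries. After CMCT (2) they numbered 4 with DESeq2, 1 with RLE scaling, 1 with transcripts as features, 0 with positions once in mm9 and 1 to 2 over left-out libraries. The U12 reactivity difference of unpaired and paired bases (0.363) was 0.485 with a pseudocount of 5, 0.306 when Winsorised over positions above 0, 0.340 and 0.316 with the other replicate's NT library and 0.317 with preferred bases alone. The cause of these changes was not tested.

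The replicate numbers share only a number in the labels: the replicate differences correlated over genes with 0.553 between NT and DMS and 0.0101 between NT and CMCT. With the replicate number as a block, U12 copy 1 had 1.14 (adjusted p = 0.000543) after DMS and 0.737 (adjusted p = 0.0297) after CMCT, 3 U12 positions were higher after DMS and 1 after CMCT, and 6 and 6 protein genes were called. The block also brought past the threshold U11 copy 1 after CMCT, U11 copy 2 after both reagents, U11 copy 3 after DMS (0.987, adjusted p = 0.0282), U12 copy 2 after CMCT (0.720, adjusted p = 0.0298), and U12 copy 4 and U6atac copy 1 after CMCT. It left 1 position higher after CMCT in U11, 3 in U4atac and 0 in U6atac.

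Direction turned under some alternatives for values not called in the report. Over left-out libraries, U11 copy 1 after DMS ranged from -1.70 to 2.02, U11 copy 2 after DMS from -3.50 to 0.490, U11 copy 3 after CMCT from -0.184 to 0.419, U12 copy 3 after DMS from -0.106 to 0.386, U12 copy 4 after DMS from -0.341 to 0.262, U6atac copy 1 after DMS from -0.801 to 0.0609, and U4atac from -0.282 to 0.131 after DMS and from -0.177 to 0.155 after CMCT. U4atac after DMS also turned with DESeq2 (-0.000853), RLE scaling (-0.00192) and transcripts as features (-0.0569), and U11 copy 3 after CMCT with positions once in mm9 (-0.774). The called fall of Txnl4b turned with positions once in mm9 (0.226 after DMS, 0.185 after CMCT). Depth limits the 3′ parts of all 4 RNAs, where few positions reached 50 RT stops.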
